A study of Mus musculus with 5 samples.

Results

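Cd14 and Cd36 encode surface receptors of macrophages, and both were more abundant in RAW264.7 cells given lipopolysaccharide (LPS) than in control cells. Cd36 rose by a mean ratio of 2.63 and Cd14 by 1.90 in the deposited FPKM. Rescaling of the libraries on the listed genes turned the direction of Cd14, and in 1 of 2 forms that of Cd36. With LPS, 72.7% of tested genes were called higher and 23.4% lower. Rescaling brings the listed genes to a common level, so it places each gene relative to the other listed genes. With compound 13 added to LPS, Cd36 was read at 0.847 times its LPS level and Cd14 at 1.04 times. These genes were taken by name, as 2 of the 1489 genes for which expression values were used. RAW264.7 is a macrophage line of mouse origin, and its RNA had been sequenced in 5 libraries. The control group (2 libraries) received PBS, the LPS model group (2 libraries) received LPS, and 1 library came from cells that received LPS together with compound 13. Per the study's methods the LPS concentration in the cell model was 0.1 μg/ml and that of compound 13 was 10 μM, RNA was collected after 24 h, and the doses are not restated for the cells that were sequenced. The labels code the library with compound as AMN31 without a compound name, so its identity rests on the methods of the study. Nothing in the labels gives separate cultures for the replicates, so a p-value here reflects only how far these libraries scatter, and that scatter may be technical. All results come from 1 cell line in culture.

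LPS, the glycolipid of the Gram-negative outer membrane, is carried by the LPS-binding protein to CD14, a protein tethered to the membrane by a glycolipid anchor. CD14 has no signalling domain of its own and hands LPS to the TLR4 and MD-2 complex. CD36 is a class B scavenger receptor of macrophages, platelets, adipocytes and endothelium. It binds oxidized low-density lipoprotein, long-chain fatty acids, thrombospondin and apoptotic cells, and it cooperates with TLR2 and TLR6 in the recognition of some bacterial lipids. Both proteins therefore bind lipid ligands at the cell surface. Of the other parts of the LPS receptor, Tlr4, Ly96 (MD-2) and Lbp were not analysed here.

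In the coordinates of mm10 (GRCm38), Cd36 (ENSMUSG00000002944) lies on the minus strand of chromosome 5 from 17781690 to 17888801. GENCODE release M21 gives Cd36 the same ends and 6 coding transcripts with 6 different start positions. The 250 bases before the RefSeq start of Cd36 (base 17835896) are printed because Cd36 is the member with the larger change with LPS, and these bases show what lies before one of its starts. The sequence is from the RefSeq promoter table on GRCm38.p6, chr5:17835897-17836146, written 5′ to 3′ on the minus strand, with motif matches in capitals.
Cd36 upstream: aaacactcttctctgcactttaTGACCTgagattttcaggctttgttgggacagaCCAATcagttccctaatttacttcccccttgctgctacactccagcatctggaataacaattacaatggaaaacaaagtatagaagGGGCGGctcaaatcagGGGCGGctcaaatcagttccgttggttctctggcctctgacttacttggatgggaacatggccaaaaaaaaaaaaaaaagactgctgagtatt

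Searched on both strands, the window held 1 CCAAT match at position -195 and 2 GGGCGG matches (GC boxes) at -109 and -93, counted back from the first transcribed base. It also held 1 AGGTCA, the half-site of many nuclear receptors, on the opposite strand at -228, where it appears as TGACCT. In the 32851 RefSeq windows of the same length, CCAAT was found in 33.8%, GGGCGG in 32.7% and AGGTCA in 14.0%. The window held no TATAAA, the letters of a TATA box, which 12.4% of windows held. It also lacked TGACTCA, an AP-1 element (4.46% of windows), TGACGTCA, a cAMP response element (1.55%), GGGACTTTC, the first letters of a classic NF-κB site (0.289%), and CACGTG, an E-box (6.02%). No searched motif overlapped another. The nearest GENCODE starts lie 179 and 200 bases downstream of the RefSeq start, and the values summed over a gene do not tell which start was used.

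The deposited values carry no unit in their header. They were read as log2 FPKM because low values then gave whole reads, where FPKM is the number of fragments for each kilobase of exon, divided by the depth of the library. Depths recovered from the step sizes of low values ran from 16172040 to 17144220 reads. Nearly all listed genes differ between control and LPS model and the rule that chose them is not given in the sources used here, so a difference with LPS is the usual case in this table. The line's macrophage markers in the table (4 of 16: Mpeg1, Cx3cr1, Itgam and Fcgr1) summed to 328 FPKM in both control libraries, to 420 and 428 under LPS and to 384 with compound. Within this sum Mpeg1 (162.5 to 322.7 FPKM) and Itgam (10.6 to 35.3 FPKM) were called higher with LPS, Cx3cr1 (139 to 52.5 FPKM) was called lower, and 3 of the 4 were called lower after either rescaling. Of markers of other cells, 3 of 11 epithelial genes, all keratins, summed to 0 in both control libraries, to 19.6 and 12.5 FPKM under LPS and to 0 with compound. The 3 of 9 mesenchymal and 3 of 6 endothelial markers summed to at most 7.55 and 1.71 FPKM, with the highest sums in the LPS model. The 5 of 6 osteoclast markers summed to 22.4 and 21.9 FPKM without LPS, 94.7 and 94.1 with LPS and 83.1 with compound. CD36 is also made by platelets, adipocytes and endothelium. None of the 5 platelet and 6 dendritic cell markers was in the table, 1 of 5 adipocyte markers was (Fabp4), and the part of other cells in the Cd36 values was not tested. In bulk RNA, a different share of a cell type and a different RNA level per cell cannot be told apart.

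Cd14 (ENSMUSG00000051439) lies on the minus strand of chromosome 18 from 36725074 to 36726736 (mm10), for which GENCODE M21 gives slightly wider ends (36725067 to 36726798) and 1 coding transcript among 2. It ranked 5 or 6 among the 1489 listed genes by FPKM in every library. Its FPKM were 685 and 732 in the control libraries, 1360 and 1331 in the LPS model libraries and 1396 with compound 13, equal to 18872, 20818, 37531, 35801 and 39788 recovered reads. Both LPS model values lay above both control values, beside 72.7% of tested genes called higher with LPS. The 1 library with compound lay above all of them. The group means were 709 ± 33.1 FPKM (SD, n = 2) for control cells and 1346 ± 20.5 FPKM (SD, n = 2) in the LPS model. Because the ends differ between sources, its recovered reads and its level per length are approximate, while ratios between libraries do not depend on the length.

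Cd36 ranked between 41 and 47. Its FPKM were 81.4 and 81.5 in the control libraries, 210 and 219 in the LPS model libraries and 181 with compound 13, equal to 4841, 5007, 12506, 12686 and 11160 recovered reads. The library with compound lay between the other groups, closer to the LPS model, a place that rests on 1 library. No groups overlapped. With LPS, 1012 of 1053 tested genes were called, so a gap between control and LPS model is the usual case. The group means were 81.5 ± 0.103 FPKM (SD, n = 2) for control cells and 214 ± 6.06 FPKM (SD, n = 2) in the LPS model. On the FPKM scale, which is per length, Cd14 was the more abundant of the pair in every library.

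**Figure D1:**
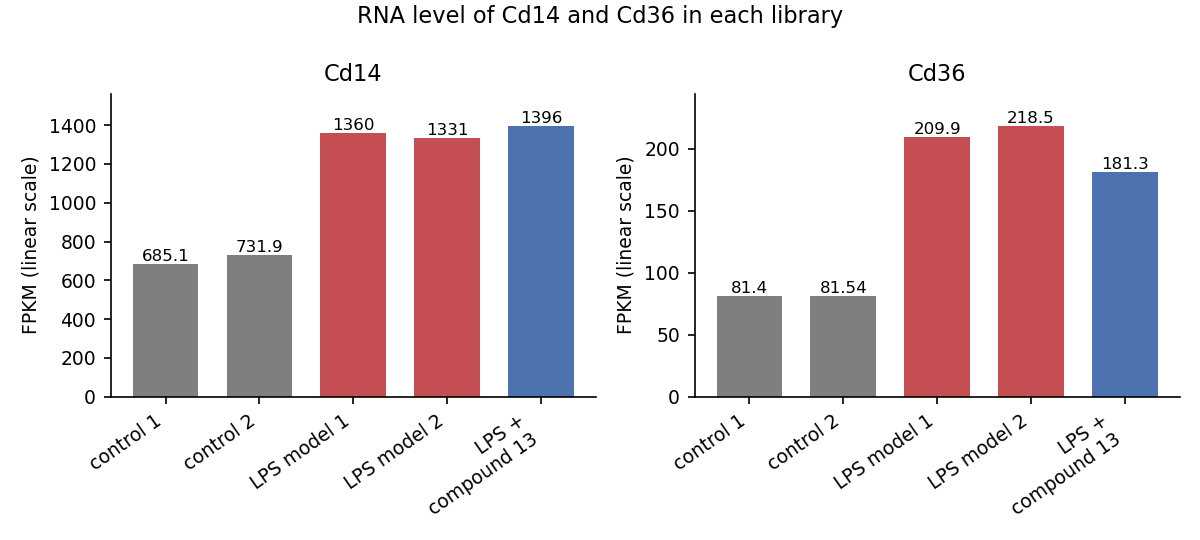
FPKM of Cd14 and Cd36 in each of the 5 libraries, with 1 bar per library (2 control, 2 LPS model, 1 LPS with compound 13). Cd14 read 685 and 732 in the control against 1331 or more in the other libraries, and Cd36 read 81.4 and 81.5 in control libraries, 210 and 219 under LPS and 181 with compound.

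The first comparison asked how LPS changed these receptors. Both rose, and Cd36 by more. On the log2(FPKM + 1) scale Cd14 rose by 0.93 (SE 0.04, 95% interval 0.82 to 1.03; adjusted p = 1.39e-05, limma) and Cd36 by 1.38 (SE 0.04, 95% interval 1.29 to 1.48; adjusted p = 2.97e-06, limma). From recovered reads the ratio was 1.90 for Cd14 (95% counting interval 1.88 to 1.92) and 2.63 for Cd36 (2.57 to 2.69). The 2 members called higher stand beside 72.7% of the 1053 tested genes, or 766, so being higher with LPS was not particular to them. The median change of all tested genes was 0.96, and 46.8% of tested genes lay below Cd14 and 72.2% below Cd36. Rescaling on the listed genes, either so that the median gene did not change or so that all libraries had equal distributions, moved that median to about 0 (median of ratios, with 408 genes called higher and 408 lower) or 0.16 (quantile, with 463 and 346). Cd14 then stood at -0.29 and -0.17 on the log2 scale, and Cd36 at 0.18 and -0.10, so the direction of Cd14 with LPS under both rescalings, and of Cd36 under quantile normalization, was turned. For Cd14 the quantile value is the step from rank 5 in both control libraries to rank 6 in both LPS model libraries.

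The second comparison asked whether compound 13 changed the receptors in cells that also received LPS. Cd36 fell by 0.24 on the log2(FPKM + 1) scale (SE 0.04, 95% interval -0.35 to -0.12; adjusted p = 0.0466, limma), and its read ratio was 0.847 (95% counting interval 0.828 to 0.866). Cd14 stood 0.05 above the LPS model (SE 0.05, 95% interval -0.08 to 0.185; adjusted p = 0.574, limma), an interval that leaves room for a small change in either direction. Its read ratio was 1.04 (95% counting interval 1.02 to 1.05), which covers counting error only. The 1 of 2 members called lower stands beside 7.22% of all tested genes (76 of 1053), and 4 genes (0.38%) were called higher. At an unadjusted p under 0.05, limma called 25.1% of the 1053 genes. On recovered reads without the FPKM filter, limma-voom called 20.4% of 1484 genes at the adjusted threshold, Cd36 among them. The median of all tested genes was -0.08, with 80.5% of genes below Cd14 and 22.0% below Cd36. The Cd36 call is near the threshold and was kept under 5 of 14 alternatives. Median-of-ratios rescaling put Cd36 at -0.070 (adjusted p = 0.396, limma) and Cd14 at 0.22. Quantile normalization set Cd14 by its rank alone, 6 in both LPS model libraries and 5 with compound, a step of 0.17. Equal ranks within a group leave no scatter, so the limma call of Cd14 there (adjusted p = 6.69e-05) measures no spread. The Cd36 call was lost without LPS model replicate 1 (log2 change -0.27) and without LPS model replicate 2 (-0.21), and it was kept without either control replicate. Without an LPS model replicate, 1 library is set against 1 and the spread comes from the control pair alone. The log2 change of Cd36 stayed near -0.24, and the cause of these losses was not tested.

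Set against single libraries, Cd36 with compound was read at 0.864 times LPS model replicate 1 and 0.83 times LPS model replicate 2. The LPS model replicates themselves differed by a ratio of 1.04 (95% counting interval 1.02 to 1.07), a smaller gap than either. The keratin sum was higher in LPS model replicate 1 and Cd36 was higher in replicate 2, and the part of keratin-bearing RNA in the Cd36 result was not tested. For Cd14 the same ratios were 1.03 and 1.05, beside 0.979 between the LPS model replicates and 1.07 between the control replicates. The difference of Cd14 with compound was thus no larger than the spread between control replicates.

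In the third comparison, cells with LPS and compound 13 were set against control cells. Both receptors were called higher except after rescaling, Cd14 by 0.98 (SE 0.05; adjusted p = 3.43e-05, limma) and Cd36 by 1.14 (SE 0.04; adjusted p = 1.49e-05, limma), beside 68.1% of tested genes called higher. The read ratios were 1.97 (95% counting interval 1.94 to 1.996) and 2.23 (2.17 to 2.29). Median-of-ratios rescaling put Cd14 at -0.07 and Cd36 at 0.11, and quantile normalization put them at 0 and -0.27. As a description in FPKM, the library with compound held 75.2% of the rise of Cd36 from control to LPS model, with 72.8% to 77.7% over the 4 pairings of single control and LPS model libraries. For Cd14 this share was 108%, with 105% to 111% over the pairings. These shares hold for the deposited scale only, since the rise itself turned for Cd14 under both rescalings and for Cd36 under quantile normalization. The comparisons share libraries, so these shares and the fold changes are not independent of each other.

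**Figure D2:**
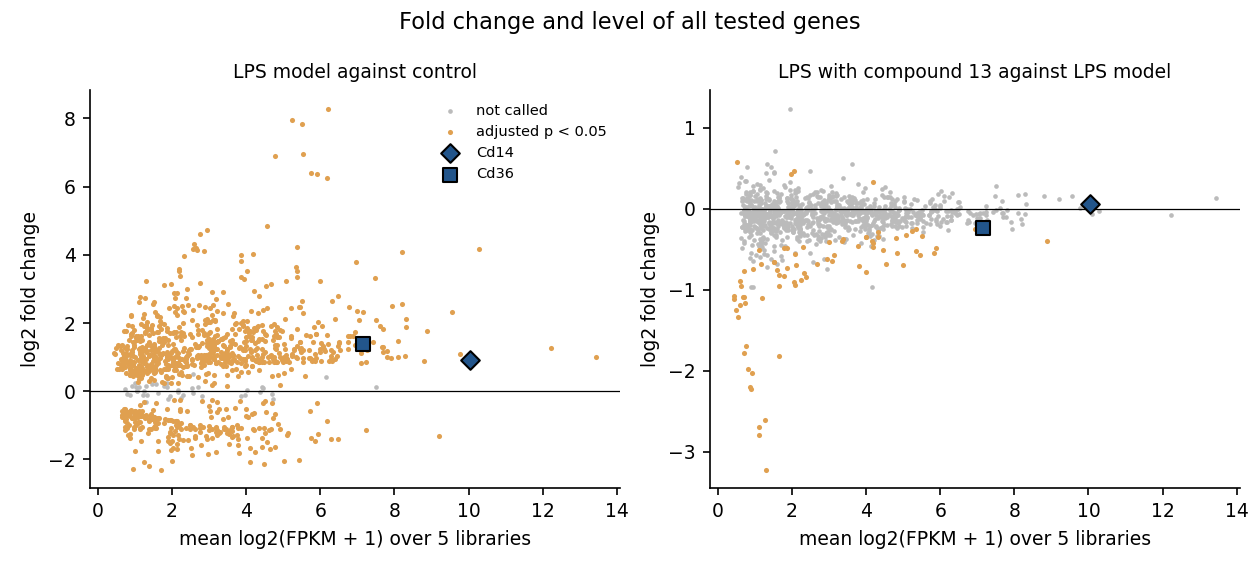
Log2 fold change of every tested gene (grey where not called, orange where called by limma) against its mean log2(FPKM + 1) over the 5 libraries, with Cd14 and Cd36 marked, for LPS model against control and for LPS with compound 13 against LPS model. Cd14 at 0.93 and Cd36 at 1.38 lie in the bulk of genes higher with LPS, a direction that turned for Cd14 under both rescalings and for Cd36 under quantile normalization, and with compound Cd36 lies at -0.24 and Cd14 at 0.05.

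The ratio of Cd14 to Cd36 within a library does not depend on a scaling factor that is common to all genes of that library. In the deposited scale it was 8.42 (95% counting interval 8.15 to 8.69) and 8.98 (8.70 to 9.26) in the control libraries. The LPS model libraries gave 6.48 (6.35 to 6.61) and 6.09 (5.97 to 6.22), and the library with compound 13 gave 7.70 (7.54 to 7.86). The control libraries had the highest ratios, the LPS model the lowest, and the library with compound lay between without overlap. On the log2 scale the ratio differed by -0.47 between LPS model and control, by 0.29 between compound and LPS model and by -0.18 between compound and control. Quantile normalization, which shifts genes of different level by different amounts, made these differences -0.06, 0.34 and 0.27, so that the library with compound then had the highest ratio. An exact two-sided permutation test gave p = 0.333 in each comparison, which is the smallest p these group sizes allow, so the test cannot reach 0.05.

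**Figure D3:**
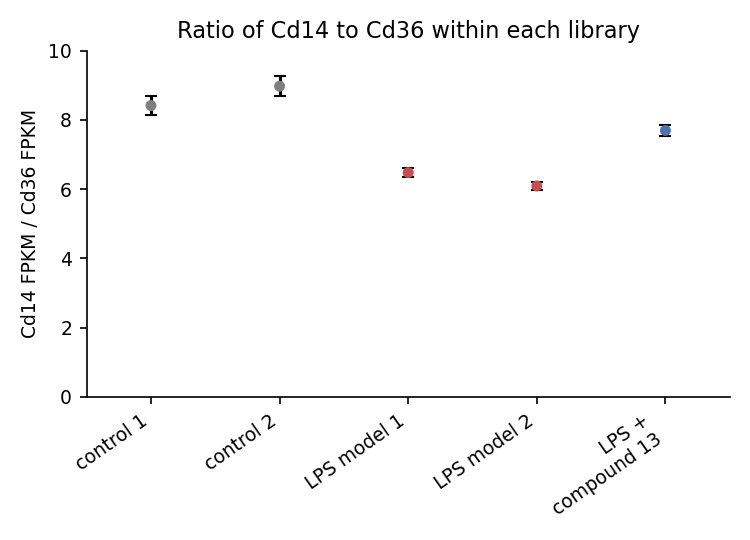
Ratio of Cd14 FPKM to Cd36 FPKM within each library, with 95% counting intervals that are in part smaller than the points. The control libraries sit at 8.42 and 8.98, the LPS model at 6.48 and 6.09, and the library with compound 13 at 7.70.

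The genes around CD14 in LPS sensing moved in both directions. Of the list of the LPS receptor complex and its proximal signalling (25 genes, 6 in the table, 5 tested), 4 were higher with LPS, 1 was lower (23.4% of all tested genes were lower), and the median change was 0.93 beside 0.96 for all tested genes. After median-of-ratios rescaling 1 was called higher and 3 lower, and after quantile normalization 2 and 2. Irak3, which encodes IRAK-M, a brake on Toll-like receptor signalling, rose from 4.5 to 15.1 FPKM, or by 1.55 on the log2(FPKM + 1) scale (SE 0.09). Trem1, an amplifier of inflammatory signals on myeloid cells, rose from 0.519 to 2.22 FPKM. Ly86, which encodes MD-1, the partner of the TLR4-related receptor RP105, fell from 94.9 to 36.1 FPKM, a change of -1.37 on the same scale (SE 0.05). By FPKM, Cd14 was the most abundant of the tested genes of this list. With compound 13, limma called 0 of the 5 (0 also at an unadjusted p under 0.05, and 0 with limma-voom), with a median of -0.03 beside -0.08 for all tested genes.

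Other pattern recognition receptors were mostly higher with LPS (29 genes, 14 in the table, 13 tested, 12 higher, 1 lower, median 1.34), beside 72.7% higher, 23.4% lower and a median of 0.96 over all tested genes. The rescalings gave 8 higher and 3 lower (median of ratios) and 7 and 2 (quantile). Zbp1, a sensor of nucleic acids, rose from 0.885 to 11.6 FPKM. Clec4n, which encodes the fungal receptor Dectin-2, rose by a ratio of 6.41, or 2.08 on the log2(FPKM + 1) scale. Ifih1, which encodes the RNA sensor MDA5, rose by a ratio of 3.99, or 1.71 on that scale. Tlr8 fell from 1.94 to 0.961 FPKM. With compound 13, limma called Zbp1, Tlr8 and Cd36 among the members of the 7 lists. All 3 were lower than in the LPS model, beside 7.22% lower and 0.38% higher of all tested genes. In this list, 2 of the 13 tested genes were called lower. At an unadjusted p under 0.05 from limma there were 6 of the 13, beside 25.1% of all tested genes. Zbp1 was at 5.98 FPKM with compound, a ratio of 0.518 and a change of -0.85 on the log2(FPKM + 1) scale (adjusted p = 0.0193, limma). Tlr8 was at 0.374 FPKM, a ratio of 0.389 and a change of -0.51 on that scale (adjusted p = 0.0489, limma), with 23 reads against 60 and 53. The scale understates changes of low genes. The Tlr8 call was kept in 4 of 13 alternatives, with adjusted p of 0.0301 to 0.181 from limma, and was lost without any 1 control or LPS model replicate (0.073 to 0.164). The Zbp1 call was kept in 9 of 14, with adjusted p of 0.00279 to 0.186 from limma, and leaving out LPS model replicate 1 (0.164) or 2 (0.186) ended it.

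Few scavenger receptors were in the table (2 of 25). Cd36 rose, and Olr1, the receptor LOX-1 for oxidized low-density lipoprotein, fell from 1.75 to 0.376 FPKM, a ratio of 0.215. On the log2(FPKM + 1) scale, which understates changes of low genes, the Olr1 change was -0.99 (SE 0.11). The 2 receptors share a ligand and were called in opposite directions with LPS, but both lower after quantile normalization. Of the partners and ligands of CD36 (17 genes, 4 in the table, 2 tested), 2 were higher, with a median of 1.66. Over all tested genes 72.7% were higher and the median was 0.96. The 2 partners are kinases of the Src family, which carry signals from CD36 in macrophages. Src rose from 0.341 to 5.02 FPKM and Lyn from 38.5 to 86.5 FPKM, whereas rescaling put Lyn at -0.048 and -0.063 on the log2 scale and left 1 of the 2 called. Thbs1, the ligand thrombospondin 1, and the integrin subunit gene Itgb3 (both named after their values were seen) did not pass the filter. Thbs1 had 0 reads in both control libraries, 10 and 14 under LPS and 3 with compound. Itgb3 had 4 and 11 reads in the control libraries, 117 and 85 under LPS and 70 with compound.

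In the list of fatty acid handling and its nuclear receptors (35 genes, 6 in the table), 5 of the 5 tested genes were called higher with LPS. These were Fabp4, Fabp5, Plin2, Ppard and Abcg1. Their median was 1.32, beside 72.7% of all tested genes higher and a median of 0.96. After either rescaling 3 were called higher and 1 lower. Fabp4, a fatty acid carrier of macrophages and adipocytes, rose from 0.113 to 3.24 FPKM. Fabp5, a related carrier, rose from 5.61 to 17.6 FPKM, and Plin2, a coat protein of lipid droplets, from 38.6 to 98.0 FPKM. With compound 13, limma called 0 of the 5 (0 also at an unadjusted p under 0.05, and 0 with limma-voom). In the list for clearance of apoptotic cells (20 genes, 6 in the table, 5 tested), 1 tested gene, Cd36, was called higher and 3 lower, beside 72.7% and 23.4% of all tested genes, and the median was -1.07, whereas after rescaling 4 (median of ratios) or 5 (quantile) were lower. Itgb5, an integrin subunit for apoptotic cell uptake, fell from 52.8 to 11.2 FPKM, and the bridging proteins Gas6 and Pros1 from 2.35 to 0.563 and from 13.1 to 5.74 FPKM. The other Fc and complement receptors for uptake (12 genes, 8 tested) were higher in 7 cases and lower in 0, beside 72.7% and 23.4% of all tested genes, with a median of 1.38, and after rescaling 5 higher and 3 lower (median of ratios) or 4 and 2 (quantile). The largest changes were those of Itgax (CD11c), from 1.15 to 7.59 FPKM, Itgam (CD11b), from 10.6 to 35.3 FPKM, and the IgG receptor Fcgr4, from 1.985 to 8.05 FPKM. With compound 13 against the LPS model, an unadjusted p under 0.05 from limma was reached by 3 of 5 genes for clearance of apoptotic cells. It was reached by 1 of 8 Fc and complement receptors, beside 25.1% of all tested genes.

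**Figure D4:**
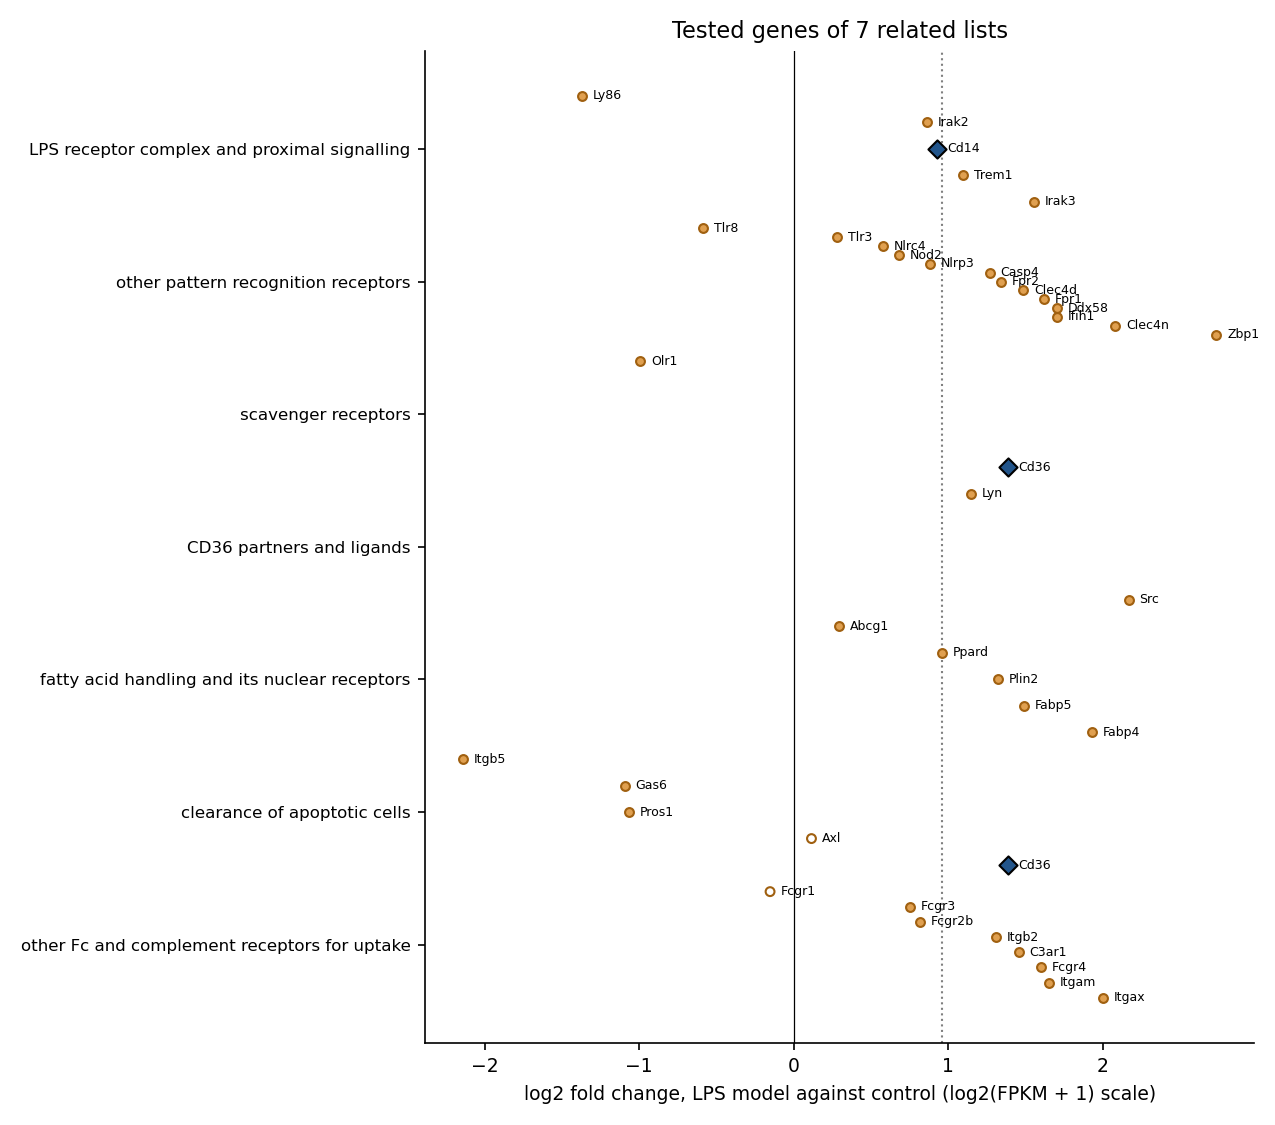
Log2 fold change (log2(FPKM + 1) scale) with LPS of each tested gene in 7 lists around CD14 and CD36, filled where called by limma and open where not, with Cd14 and Cd36 as diamonds and a dotted line at 0.96, the median of all tested genes. Ly86, Tlr8, Olr1, Itgb5, Gas6 and Pros1 lie to the left of 0 as called genes. The values drawn are without rescaling. After rescaling more genes were below 0, Cd14 and Lyn among them, and Cd36 under quantile normalization.

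The genes most like each receptor over the 5 libraries were found by the root mean square (RMS) difference of log2(FPKM + 1) from the control mean, out of 1052 other tested genes. For Cd14 these were Lair1 (an inhibitory collagen receptor of leukocytes, RMS difference 0.0352), Cstb (the protease inhibitor cystatin B, 0.0394), Ppard (a nuclear receptor for fatty acids, 0.0421), Slc16a3 (the lactate carrier MCT4, 0.0431) and Sdc4 (the proteoglycan syndecan 4, 0.0452). Cstb, for example, read 297 and 307 FPKM without LPS, 563 and 556 with LPS and 622 with compound. The ratio of mean FPKM with LPS was 2.78 for Lair1 and 2.21 for Ppard, both low genes whose changes the scale understates. It was 1.90 for Cd14 and 1.85 to 1.90 for Cstb, Slc16a3 and Sdc4. Slc16a3 read 70.4 and 69.6 FPKM in the LPS model and 68.7 with compound, and the other 4 read higher with compound than in both LPS model libraries, which the choice by likeness to Cd14 likewise favours.

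For Cd36 they were Phf11d (a PHD finger protein, 0.0179), Lgals3bp (the secreted galectin-3-binding protein, which carries a scavenger receptor domain, 0.0195), Rab15 (a small GTPase, 0.0378), Rassf8 (a Ras-association protein, 0.0439) and Tgfb1 (transforming growth factor β1, 0.0466). Lgals3bp read 71.1 and 71.9 FPKM without LPS, 183 and 188 with LPS and 156 with compound. Tgfb1 read 35.6 and 36.6, then 94.8 and 99.8, then 86.5 FPKM. Rab15 was near the floor, at 0.16 and 0.13, then 1.92 and 1.92, then 1.62 FPKM. Its ratio of mean FPKM with LPS was 13.5, beside 2.63 for Cd36 and 2.60 to 2.87 for the others. The log2(FPKM + 1) scale understates such changes, so the place of Rab15 here rests on that scale. All 5 read lower with compound than in both LPS model libraries, which the choice by likeness over the 5 libraries favours. The likeness of Cd14 to Cd36 was 0.302, which made Cd36 gene 379 in order of likeness to Cd14, and Cd14 gene 324 in order of likeness to Cd36. With a pseudocount of 0.1, 3 of the 5 genes nearest Cd14 and 1 of the 5 nearest Cd36 were shared.

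**Figure D5:**
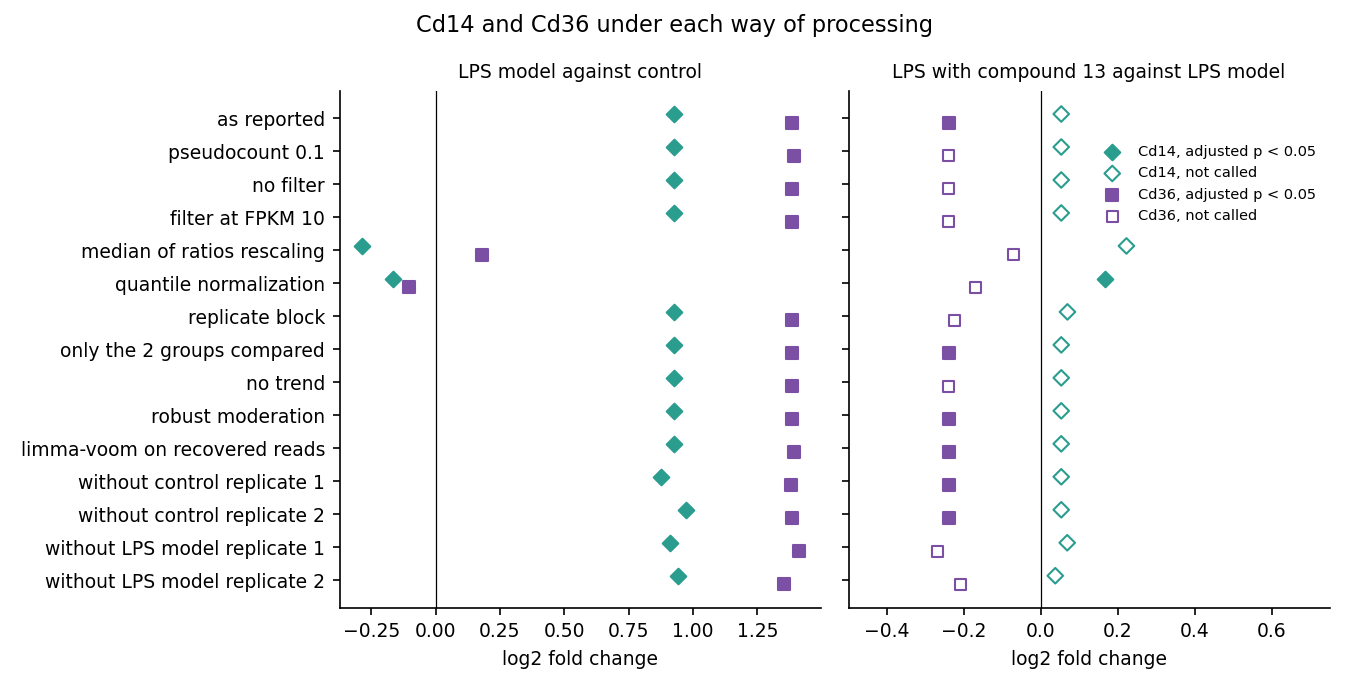
Log2 fold change of Cd14 and Cd36 for LPS model against control and for LPS with compound 13 against LPS model, under each processing alternative, filled where called by limma. With LPS, Cd36 stays between 1.35 and 1.41 and Cd14 between 0.88 and 0.97 except under the rescalings, which put Cd36 at 0.18 and -0.10 and Cd14 at -0.29 and -0.17, and with compound the Cd36 change keeps its sign throughout.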

How the data were processed

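RNA of RAW264.7 cells was measured in 5 libraries, grouped by the sample labels, with compound 13 identified from the study's methods. The authors deposited values of 1489 genes from libraries of a stranded kit, with no unit in the header. These deposited values were read as log2 FPKM, from the whole-read steps described here; per the submitters' notes on processing, reads were handled with HISAT2 2.1.0, Trimmomatic 0.32, SAMtools 1.4 and DESeq2 on build mm10. Which counter was used and how the genes were selected is not given in the sources used here.

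Values were turned back to FPKM, where 562 exact zeros were read as genes with no read. FPKM × exon length (GENCODE M21) × depth gave whole reads at the true depth: 97.18% to 99.23% of values up to 20 reads lay within 0.1 of a whole number, against at most 53.18% at other depths. Counting intervals (95%, Clopper-Pearson) cover counting error only, since reads without molecular identifiers are not independent molecules. R 4.3.3 with limma 3.58.1 was fitted to log2(FPKM + 1), a scale that understates changes of low genes, with a trend, in 3 groups and 5 libraries (2 residual degrees of freedom). The lone library with compound was assumed to vary like the others. Tests covered 1053 genes, those at or above FPKM 1 in 2 libraries or with compound. Both members reached it in every library. Calls were made at p under 0.05 after Benjamini-Hochberg adjustment. The rest used Python 3.11.15 with matplotlib 3.10.9, scipy 1.17.1, pandas 2.3.3 and numpy 2.4.6.

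The 2 members, 7 gene lists and 8 marker lists were chosen with earlier results of these data known. Genes named are Cd14, Cd36, up to 3 called members per list with the largest LPS change in each direction, every list member called with compound, and the 5 genes most like each receptor. Tested on simulated data, the fit called 59.5%, 76.5% and 100% of genes changed by 1.5, 2 and 4 times in LPS model against control (1011 genes), and 0.579% of unchanged genes. For compound 13 against LPS model (1014 genes) these shares were 59.2%, 77.3%, 100% and 0.913%. For compound 13 against control (1011 genes) they were 67.4%, 88%, 96.3% and 1.16%. For LPS model against control, 864 of these 1011 genes were unchanged, whereas limma called 1012 of 1053 genes in the deposited values. Whether these percentages hold for the deposited libraries was not tested. Alternatives were another pseudocount, filter, scaling, moderation, samples in the fit, a replicate block, a fold minimum, limma-voom on recovered reads, and leaving out each replicate. Biological process terms and 1 gene of the lists are not reported here.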

Additional observations from a re-analysis of the deposited data

How the results depend on the processing

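Of the results on Cd14 and Cd36, those with LPS kept direction and call in 12 of 12 alternatives without rescaling, at log2 changes of 0.88 to 0.97 for Cd14 and 1.35 to 1.41 for Cd36. Rescaling by the median of ratios put Cd14 at -0.29 (adjusted p = 0.00449, limma) and quantile normalization at -0.17 with LPS, and quantile normalization put Cd36 at -0.10. Against control, cells with LPS and compound 13 had Cd14 at -0.065 (median of ratios) and 0 (quantile), and Cd36 at 0.11 and -0.27. The first rescaling sets the median listed gene to no change and the second gives all libraries equal distributions, while the summed FPKM of the listed genes went from 26167 and 27194 in the control to 63404 and 63508 in the LPS model. Lyn stood at -0.048 and -0.063 with LPS under them. For compound 13 against the LPS model, Cd14 was called after quantile normalization at 0.17 (adjusted p = 6.69e-05, limma). Its rank was equal in libraries of a group there, so this p does not measure their scatter. The Cd36 change was not called with a pseudocount of 0.1 (-0.24, adjusted p = 0.0631, limma), a filter at FPKM 10 (-0.24, 0.0588), no filter (-0.24, 0.057), median of ratios (-0.070, 0.396), quantile normalization (-0.17, 0.0728) or no trend (-0.24, 0.132). Leaving out each replicate gave -0.27 to -0.21, with adjusted p of 0.0222 to 0.251 from limma. It stayed called with only the 2 groups, robust moderation, limma-voom, and without either control replicate. The cause of these losses was not tested.

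Deviations of the same-numbered control and LPS model replicates showed almost no correlation (r = -0.022 over 1053 genes). This value compares only the control replicates with the LPS model replicates, so it cannot decide whether the numbers pair the libraries. With the replicate as a block, Cd36 with compound stood at -0.22 (adjusted p = 0.131, limma) and the genes called with compound numbered 52 instead of 80.

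Genes called with LPS numbered 1012, or 484 with the filter at 10 (494 tested) and 622 with an absolute log2 change of at least 1. Called with compound against the LPS model were 80, and 35 with a pseudocount of 0.1, 15 with the filter at 10, 0 after median of ratios, 8 after quantile normalization, 141 in a fit of only these 2 groups, 302 with limma-voom, 20 with the fold minimum, and 17 to 139 without a replicate. Against control they were 969, or 483 with the filter and 528 with the fold minimum. The limma-voom fit covered 1484 genes, without the FPKM filter. With 2, 2 and 1 libraries, the spread rests on 2 residual degrees of freedom.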

Other observations

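Both receptors carry 4 cellular component terms in the deposited annotation. Of genes annotated to the external side of the plasma membrane (57 listed, 40 tested), 31 were higher and 7 lower with LPS, with a median log2 change of 0.97, beside 72.7% higher, 23.4% lower and a median of 0.96 for all tested genes. For membrane raft (33 listed, 24 tested) the counts were 19 and 4 with a median of 1.10, for Golgi apparatus (52 listed, 34 tested) 30 and 4 with 1.06, and for extracellular space (177 listed, 120 tested) 90 and 27 with 1.11. After median-of-ratios rescaling the counts with LPS were 16 higher and 17 lower, 12 and 9, 12 and 11, and 64 and 40 in the same order. With compound 13 against the LPS model, limma called 0 genes higher in each term, and lower were 4, 5, 4 and 15 genes, Cd36 among them in each, beside 0.38% higher and 7.22% lower of all tested genes. Under molecular function, lipopolysaccharide binding was given to Cd14 and 1 other of the listed genes, and lipoteichoic acid binding to Cd14 alone. Cd36 was the only listed gene with lipoteichoic acid receptor activity, and 1 of 4 with low-density lipoprotein particle binding.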
